A study of Homo sapiens with 12 samples.

Results

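Cells treated with ETX were set against untreated cells of the same line and the same hairpin. The 3 arrays labelled scramble with ETX and the 3 labelled scramble were taken, which is 6 of the 12 arrays of the series. All cells were MDA231 (MDA-MB-231), an established human line from a triple-negative breast cancer, and both groups carried a scrambled short hairpin RNA, so that ETX was the only labelled difference. The labels do not spell out ETX, which is read here as etomoxir. The other 6 arrays held untreated cells with the pGIPZ lentiviral hairpins shCPT-1, against CPT1, or shCPT-2, against CPT2, 3 arrays each. The dose and duration of ETX for the arrayed cells, and whether the scramble cells received a vehicle, are not stated for the arrays: the protocols describe dosing of mice and a pretreatment of cells before injection, and tie neither to the arrays. No label tells whether the arrays of 1 group are from independent cultures, or whether a line was a pool or a clone, so p-values reflect how far these arrays vary, and that variation may be technical alone.

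Long-chain fatty acids cross into mitochondria as carnitine esters. CPT1 on the outer membrane makes the ester, the carrier SLC25A20 carries it across the inner membrane, and CPT2 hands the acyl group back to coenzyme A for beta-oxidation. Etomoxir is an irreversible inhibitor of CPT1. Fatty acids in the cell can also be stored as triglyceride in lipid droplets, and they bind the PPAR nuclear receptors, which switch on genes of fatty acid handling. Other background used below is the integrated stress response, in which kinases that sense amino acid shortage, ER stress or mitochondrial stress phosphorylate the initiation factor eIF2 and favour translation of ATF4, a transcription factor for genes of amino acid supply.

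The arrays gave log2 intensities for 12887 genes, with array medians between 6.23 and 6.27. Markers of the labelled line were high: VIM, the mesenchymal filament protein, averaged 14.48 in scramble and 14.54 with ETX, and CD44, an adhesion receptor of basal-like lines, averaged 12.57 and 12.63. All 13 basal-like markers were measured, of which 0 rose in limma (1 at an unadjusted p under 0.05) and 2 fell with ETX, TGFBI by 0.44 and SNAI2 by 0.21. The oestrogen receptor ESR1 was low, at 6.97 and 7.03, whereas the keratins KRT8 and KRT18 were well expressed (10.92 and 12.81 in scramble) and fell by 0.46 and 0.43. Of the leukocyte markers only CD3E had a tested value, 6.51 in scramble and 6.50 with ETX. For the actin control, the difference between 3′ and 5′ signal, a measure of how evenly the RNA was copied, was 2.25, 2.19 and 1.76 in scramble and 1.68, 1.78 and 1.78 with ETX. Scramble 3 thus lay with the ETX arrays on that control, but for GAPDH the same difference separated the groups fully, at 0.77, 0.72 and 0.57 in scramble and 0.47, 0.49 and 0.50 with ETX. A measure of RNA quality thus moved with the treatment. Scramble 3 had the lowest correlation with its own group of the 6 arrays (0.995). SNAI2 was lost with the GAPDH difference as a covariate (limma adjusted p = 0.205), and without scramble array 3 the basal-like list held 1 rise.

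With ETX 2821 genes were higher (21.9% of those tested) and 2498 lower (19.4%) at an adjusted p under 0.05 in limma. Most changes were small: the median called rise was 0.30 and the median called fall -0.26 on the log2 scale, and the median over all tested genes was -0.01. Larger changes ran mostly upward. At least 1.5-fold higher were 344 called genes against 80 lower, and at least 2-fold higher were 56 against 3. The 3 ETX arrays all lay above the 3 scramble arrays for 3321 genes (25.8%) and all below them for 3064 (23.8%). With GAPDH's 3′ to 5′ difference as a covariate, 1304 genes rose and 866 fell in limma, 1934 of the 5319 calls were shared, and 28 of the 30 largest rises and 26 of the 30 largest falls were still called. Because that control does not overlap between the groups, RNA quality and ETX cannot be told apart in full, and its part in any single change was not tested. The counts of each list with this covariate are given beside it below. With the actin control's difference as a covariate 2167 genes rose and 1665 fell in limma. Calls over all tested genes thus drop with either covariate, and a list's loss of calls is to be read against that drop. The shares of called genes in the fit without a covariate serve below as the background for each gene list. Named genes are the 30 strongest rises and the 30 strongest falls of called genes, kept where no ETX array fell within the scramble range and where the larger of both group means was at least 8.69, the median level over tested genes, and up to 4 members with the smallest p in each list. For these strongest rises and falls, groups that do not overlap are thus a condition of the choice and no further result. Some further members are named to fill out a list and were chosen after their values were seen. Changes are log2 differences of ETX minus scramble with the standard error (SE) of the fit, and n = 3 arrays per group throughout.

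Genes of fatty acid handling were among the largest rises. PDK4, the kinase that shuts down pyruvate dehydrogenase when cells burn fat, read 5.06, 4.87 and 5.15 in scramble and 8.75, 9.16 and 8.66 with ETX. The groups were far apart, and the change was 3.83 ± 0.17 SE (14.2-fold, limma adjusted p = 3.53e-08), but PDK4 lay under the array medians in scramble and both hairpin lines and passed the filter on low values only through its ETX arrays, so it had to differ and its fold is uncertain. ANGPTL4, a secreted inhibitor of lipoprotein lipase, read 7.41, 7.31 and 7.25 against 9.50, 9.61 and 9.49 with ETX. PLIN2, the coat protein of lipid droplets, read 10.41, 10.41 and 10.72 against 12.53, 12.58 and 12.55. For both genes every ETX array exceeded every scramble array by well over the spread within a group (2.21 ± 0.07 and 2.04 ± 0.08). All 3 are PPAR targets, and of 27 tested PPAR target genes 13 rose (48.1%) and 2 fell, with a median change of 0.18. In 14 of the 27 the ETX arrays all lay above the scramble arrays. The GAPDH covariate gave 10 rises and 2 falls.

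The carnitine shuttle also rose in part. SLC25A20, the carnitine-acylcarnitine carrier, read 8.04, 8.06 and 8.06 in scramble and 9.25, 9.26 and 9.30 with ETX (1.22 ± 0.06, limma adjusted p = 5.5e-08). CPT1A, the liver-type isoform of the enzyme that etomoxir inhibits, read 9.64, 9.84 and 9.86 against 10.90, 10.80 and 10.97 (1.11 ± 0.08). Groups of both genes did not overlap, and the spread within a group was at most 0.12 (SD). CPT2 read 7.46, 7.31 and 7.46 against 7.69, 7.71 and 7.64, a change of 0.27 ± 0.10 that passed narrowly (limma adjusted p = 0.043) and was lost on leaving out any single scramble or ETX array (0.0534 to 0.14). CPT1C, which is mainly neuronal, missed the threshold (-0.17, limma adjusted p = 0.0725), and no value is given for CPT1B, whose probe sets are assigned to several symbols. Over the shuttle and acyl-CoA activation, 10 of 18 tested genes rose (55.6%) and 2 fell. The risers CPT1A, CPT2, SLC25A20, ACSL1 and MLYCD are on the PPAR target list too, so these counts are not separate. Among the risers were SLC22A4, an organic cation and carnitine transporter (0.42), and MLYCD, which removes the malonyl-CoA that restrains CPT1 (0.54). ACACA, which makes malonyl-CoA, fell by 0.37 from 10.23, 10.23 and 10.18 to 9.88, 9.84 and 9.81. The shuttle list gave 6 rises and 1 fall with the GAPDH covariate, and CPT2 was lost with it (limma adjusted p = 0.83) and with the actin covariate (0.262). ACACA averaged over its probe sets was -0.21.

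**Figure D1:**
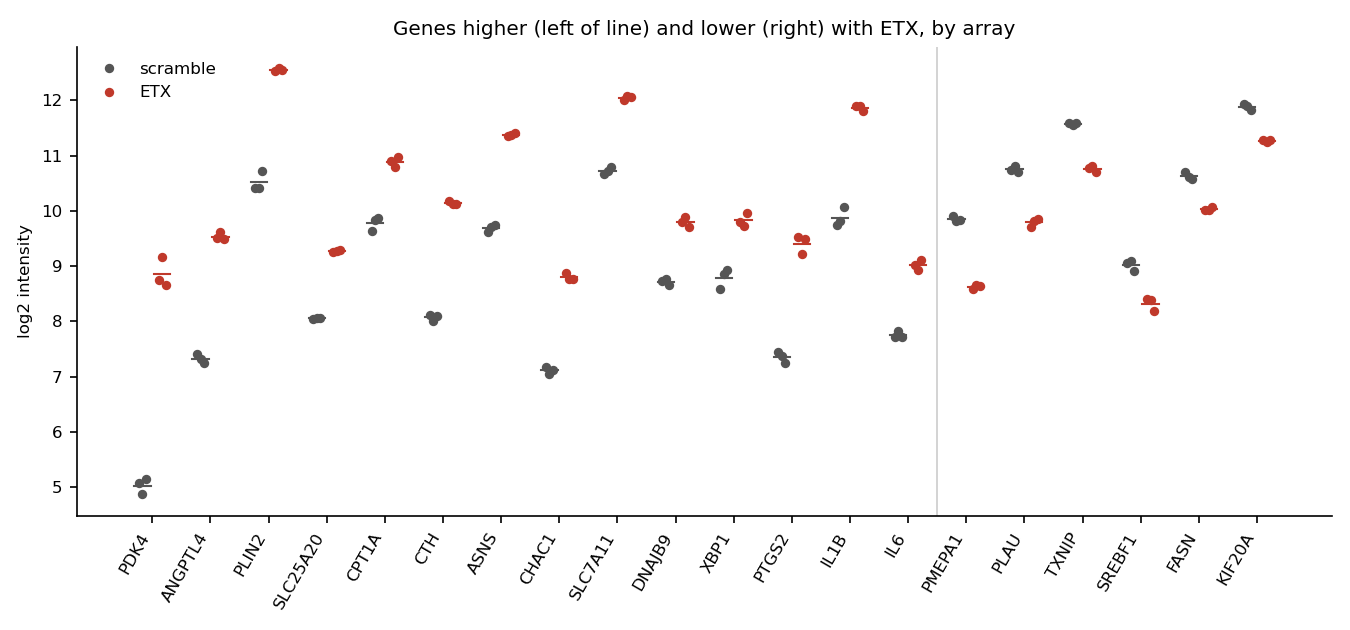
Log2 intensity (vertical axis) of 20 genes in the 3 scramble arrays (grey) and the 3 ETX arrays (red), each point an array and each short line a group mean; genes left of the vertical line were higher with ETX and those right of it lower. No gene shown has overlapping groups, and PDK4 moves from about 5 to about 9, the widest step. Levels of different genes come from different probe sets and are not comparable with each other.

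Within mitochondrial beta-oxidation the response was uneven, with 6 of 19 tested enzymes higher and 4 lower, shares of 31.6% and 21.1% that stand near the background. The risers ACADM, ACAA2 and ETFDH were already counted among the PPAR targets. ETFDH, which passes electrons from acyl-CoA dehydrogenases to ubiquinone, read 7.12, 7.14 and 7.09 in scramble and 8.18, 8.22 and 8.01 with ETX (1.02 ± 0.09). ETFA, a subunit of the flavoprotein that feeds it, read 10.78, 10.86 and 11.16 against 11.66, 11.71 and 11.73 (0.76 ± 0.11). ACAA2, the thiolase of the last step, read 8.48, 8.50 and 8.79 against 9.72, 9.78 and 9.73 (1.15 ± 0.12), but another of its 3 kept probe sets was called in the opposite direction (-0.22). The enzymes of the first and middle steps for long chains changed little: ACADVL, HADHA and HADHB differed by 0.18, 0.11 and 0.10 and did not pass (limma adjusted p = 0.0801, 0.0725 and 0.0947). ECHS1, the short-chain hydratase, fell by 0.23. Without ETX array 1 the list held 2 falls in place of 4, and it gave 6 rises and 1 fall with the actin covariate and 4 rises and 1 fall with the GAPDH covariate, where ACAA2 was 0.76 and ETFA 0.41. Averaged over its probe sets ACAA2 was 0.42. In peroxisomal beta-oxidation 2 of 14 genes rose and 2 fell. The rises became 1 without scramble array 1 or ETX array 2, and the GAPDH covariate left 0 rises and 0 falls in limma. Its named members ABCD3 and ACOX2 lost their calls with the actin covariate (limma adjusted p = 0.141 and 0.053). ABCD3 was 0.14 with it in place of 0.29, and ACOX2 -0.35 in place of -0.40.

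Pyruvate dehydrogenase and its regulators gave 5 rises and 2 falls among 14 tested genes. PDK4 is counted among the 5 rises. It passed the filter on low values only through its ETX arrays, so that rise had to be there. The relatives of PDK4, PDK1, PDK2 and PDK3, differed by 0.23, 0.13 and -0.07, of which only PDK1 passed (limma adjusted p = 0.0129). MPC2, a subunit of the mitochondrial pyruvate carrier, read 9.45, 9.61 and 9.97 against 10.41, 10.42 and 10.42 (0.74 ± 0.16), and PDHA1, a catalytic subunit of the complex, fell by 0.27. The 5 rises became 3 without scramble array 1, scramble array 2 or ETX array 1. That list gave 2 rises and 1 fall with the actin covariate and 1 rise and 0 falls with the GAPDH covariate in limma. The 1 rise left with GAPDH was PDK4. MPC2 was 0.37 over its probe sets, 0.42 with actin and 0.18 with GAPDH (limma adjusted p = 0.0678), and PDHA1 was lost with GAPDH (0.0769).

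Of the receptors, PPARA changed and PPARD and PPARG did not pass. PPARA, the fatty acid receptor best known from liver, read 7.64, 7.63 and 7.46 in scramble and 7.87, 7.93 and 7.77 with ETX (0.28 ± 0.08, limma adjusted p = 0.014), a call lost without ETX array 2 (0.25, limma adjusted p = 0.0567). PPARD read 10.18, 10.13 and 10.06 against 9.96, 9.95 and 10.23, which overlapped and did not pass (-0.07, limma adjusted p = 0.529). PPARG, the adipocyte receptor, differed by -0.16 (limma adjusted p = 0.0614) and passed without scramble array 1 (-0.22, limma adjusted p = 0.0197). RXRA, the shared partner receptor, fell by 0.42, and the coactivator PPARGC1A rose by 0.57 at a low level (6.65, 6.47 and 6.70 against 7.20, 7.14 and 7.18). FABP5, a carrier that delivers fatty acids to PPARD, differed by 0.05 (limma adjusted p = 0.394). PPARA was lost with the actin and GAPDH covariates (0.26 and 0.20, limma adjusted p = 0.0676 and 0.26), while PPARG passed with both (-0.24 and -0.31, limma adjusted p = 0.0119 and 0.00629). Over all probe sets PPARA was 0.46 and RXRA -0.25.

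Lipid droplet genes went both ways. The droplet coat gene PLIN2 and ANGPTL4 were joined among 6 rises in 22 tested genes by G0S2, a lipase inhibitor (0.15), LPIN2, a phosphatidate phosphatase of triglyceride synthesis (0.30), FITM2, a droplet-forming ER protein (0.58), and SOAT1, which makes cholesterol esters (0.58, with 1 other probe set called in the opposite direction). The 5 falls included DGAT2 (-0.41), DGAT1 (-0.22), AGPAT2 (-0.29) and LPIN1 (-0.26), all enzymes of triglyceride synthesis, and PNPLA3 (-0.56), a droplet hydrolase. The list's median was -0.06, and its shares of 27.3% higher and 22.7% lower stand near the background. With the GAPDH covariate they gave 4 rises and 2 falls, FITM2 was 0.33 and SOAT1 0.35; SOAT1 averaged over its probe sets was 0.11.

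Genes of fatty acid and sterol synthesis fell in part. SREBF1, the transcription factor of lipid synthesis, read 9.06, 9.08 and 8.92 in scramble and 8.41, 8.38 and 8.18 with ETX (-0.70 ± 0.07, limma adjusted p = 1.72e-05). FASN, fatty acid synthase, read 10.70, 10.61 and 10.58 against 10.02, 10.01 and 10.08 (-0.59 ± 0.04). Neither gene's groups overlapped. Of 18 genes of fatty acid synthesis 6 fell (33.3%) and 2 rose, the latter ME1, which supplies NADPH and is also an NRF2 target (0.30), and the desaturase SCD5 (0.18). The 2 rises became 4 without scramble array 3 and 1 without any other single array but ETX array 3, and the GAPDH covariate gave 1 rise and 4 falls. In cholesterol synthesis and uptake 9 of 20 genes fell (45.0%) and 2 rose, with LSS (-0.51), DHCR7 (-0.45) and HMGCS1 (-0.43) among the falls. SQLE and INSIG1 differed by -0.04 and -0.16 and did not pass (limma adjusted p = 0.593 and 0.0711). The cholesterol rises became 1 without any single array but scramble array 3, and the list gave 0 rises and 8 falls with actin and 0 rises and 6 falls with GAPDH as a covariate in limma. Averaged over probe sets, SREBF1 was -0.43, DHCR7 -0.17 and ME1 0.55.

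The integrated stress response rose as a group: 17 of 25 tested genes were higher (68.0%) and 2 lower, with a median of 0.58. ATF4 itself, which is controlled mainly by translation, read 12.36, 12.34 and 12.23 in scramble and 12.91, 12.85 and 12.91 with ETX (0.58 ± 0.06, limma adjusted p = 2.35e-05). DDIT3 (CHOP), its partner in prolonged stress, read 8.78, 8.68 and 8.60 against 9.33, 9.49 and 9.27 (0.67 ± 0.06). CHAC1, a glutathione-cleaving enzyme, read 7.17, 7.04 and 7.11 against 8.88, 8.77 and 8.77 (1.70 ± 0.08), and its groups stood well apart. JDP2, a repressor of the AP-1 family, read 6.92, 7.08 and 6.93 against 8.38, 8.26 and 8.50 (1.41 ± 0.07). ATF3 (1.05), SESN2 (0.84), DDIT4 (0.74), TRIB3 (0.71) and CEBPB (0.70) also rose, whereas ATF5 fell by 0.15. Of the eIF2 kinases, EIF2AK3 (PERK, the ER sensor) rose by 0.58, EIF2AK1 (HRI, which also relays mitochondrial stress) fell by 0.35, and EIF2AK4 (GCN2, the amino acid sensor) differed by -0.03 (limma adjusted p = 0.667). The 2 falls became 0 without scramble array 2, ETX array 1 or ETX array 2 and 1 without scramble array 1 or 3, whereas the GAPDH covariate gave 16 rises and 0 falls in limma. Averaged over probe sets, ATF3 was 0.54 and EIF2AK1 -0.22.

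ATF4 binds composite sites (CARE) whose letters were searched as TGATGNAA on both strands of the 250 bases before each gene's RefSeq start (GRCh38.p14), where they stood in 3.19% of all 27305 promoters and in 1.54% of the 10429 tested genes with a promoter. Among the lists they were in 4 of 21 stress response genes, 3 of 14 enzymes of asparagine, proline, cysteine and transamination, and 2 of 15 cytosolic tRNA synthetases. They were also in 2 of 17 genes of glutathione use, but in 1 of 18 amino acid transporters and 0 of 11 genes of serine, glycine and one-carbon synthesis. The windows below are shown because their genes carry the amino acid and stress part of the response; capitals mark the match, which appears as the reverse complement in CHAC1, HERPUD1, IARS1 and AARS1. They lie at chr7:97872447-97872498 (minus strand) for ASNS, chr15:40953240-40953291 (plus strand) for CHAC1, chr1:212565194-212565245 (plus strand) for ATF3, chr16:56931944-56931995 (plus strand) for HERPUD1, chr12:24949120-24949171 (minus strand) for BCAT1, chr9:92293698-92293732 (minus strand) for IARS1 and chr16:70289664-70289715 (minus strand) for AARS1.
ASNS: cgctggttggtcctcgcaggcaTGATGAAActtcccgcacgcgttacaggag
CHAC1: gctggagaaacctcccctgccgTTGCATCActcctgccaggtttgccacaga
ATF3: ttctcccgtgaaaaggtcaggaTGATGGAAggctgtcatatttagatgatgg
HERPUD1: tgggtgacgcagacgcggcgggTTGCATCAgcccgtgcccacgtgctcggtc
BCAT1: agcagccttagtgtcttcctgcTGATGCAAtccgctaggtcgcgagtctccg
IARS1: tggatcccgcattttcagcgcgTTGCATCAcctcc
AARS1: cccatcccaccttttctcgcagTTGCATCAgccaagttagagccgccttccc
The first base of the match lay 68 bases upstream of the start in ASNS, 209 in CHAC1, 191 in ATF3 and 13 in IARS1. Over all tested genes, those with the letters were higher in 46 and lower in 22 of 161 cases (28.6% and 13.7%), against 22.3% and 20.1% of those without. This is a description of the windows, and many stress genes that rose do not hold the letters there.

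Amino acid enzymes rose in several branches. CTH, the cystathionine gamma-lyase that makes cysteine, read 8.12, 8.01 and 8.09 in scramble and 10.19, 10.12 and 10.12 with ETX, a change of 2.07 ± 0.05 with the smallest adjusted p of the genes described here (limma, 7.74e-11). ASNS, asparagine synthetase, read 9.63, 9.71 and 9.75 against 11.36, 11.37 and 11.40 (1.68 ± 0.05). PCK2, the mitochondrial PEP carboxykinase, read 7.88, 7.95 and 7.98 against 8.94, 9.03 and 8.98 (1.05 ± 0.06). In all of them the distance between groups was many times the spread within a group. The serine pathway rose along its length, with PHGDH at 0.46, PSAT1 at 0.82 and PSPH at 0.92, followed by MTHFD2 of the mitochondrial folate cycle at 0.73. In that list 6 of 13 genes rose (46.2%) and 0 fell in limma (1 at an unadjusted p under 0.05). Of the asparagine, proline, cysteine and transaminase enzymes 7 of 18 rose and 1 fell, GLUD1 (-0.29); 3 fell without ETX array 3. Without scramble array 3 the serine list held 2 falls. The GAPDH covariate gave 6 rises and 0 falls there and 5 rises and 0 falls in the other list, in limma.

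Amino acid transporters followed, with 12 of 21 higher (57.1%) and 2 lower. SLC7A11, the cystine importer, read 10.6682, 10.7167 and 10.8012 in scramble and 12.0017, 12.0868 and 12.0556 with ETX (1.32 ± 0.05). Its heavy-chain partner SLC3A2 read 9.56, 9.57 and 9.73 against 10.37, 10.43 and 10.53 (0.82 ± 0.06). Another light chain of that partner, SLC7A5 for large neutral amino acids, rose by 0.58, while the listed SLC7A6, SLC7A7 and SLC7A8 were not called. SLC1A4, which carries alanine, serine and cysteine, read 8.23, 8.26 and 8.29 against 9.17, 9.20 and 9.27 (0.95 ± 0.05). None of these groups overlapped. The 2 falls became 0 without scramble array 1, scramble array 2 or ETX array 2 and 1 without ETX array 1. In limma the list gave 12 rises and 0 falls with the actin covariate and 11 rises and 0 falls with GAPDH.

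The aminoacyl-tRNA synthetases, which load amino acids onto tRNA, gave different counts by compartment. Of 18 cytosolic genes 14 rose (77.8%) and 3 fell, with a median of 0.38, while of 15 mitochondrial genes 4 rose and 5 fell, with a median of 0.00. WARS1 read 10.49, 10.45 and 10.57 in scramble and 11.25, 11.25 and 11.26 with ETX (0.75 ± 0.05), and GARS1, which also serves mitochondria, read 11.84, 11.85 and 11.86 against 12.50, 12.54 and 12.50 (0.66 ± 0.05). SARS1 rose by 0.98. The cytosolic falls were VARS1 (-0.41, with 1 probe set called higher), HARS1 (-0.26) and KARS1 (-0.15). On the mitochondrial side SARS2 read 8.54, 8.50 and 8.31 against 7.87, 8.02 and 7.95 (-0.50 ± 0.07), so that the serine enzymes of the compartments went in opposite directions. VARS2 and CARS2 fell by 0.47 and 0.46, and MARS2 rose by 0.56. The 5 mitochondrial falls became 3 without ETX array 2. The GAPDH covariate gave 11 rises and 1 fall in the cytosol and 3 rises and 3 falls in mitochondria, with SARS2 at -0.30 and VARS2 at -0.25. The difference between the lists was not tested.

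**Figure D2:**
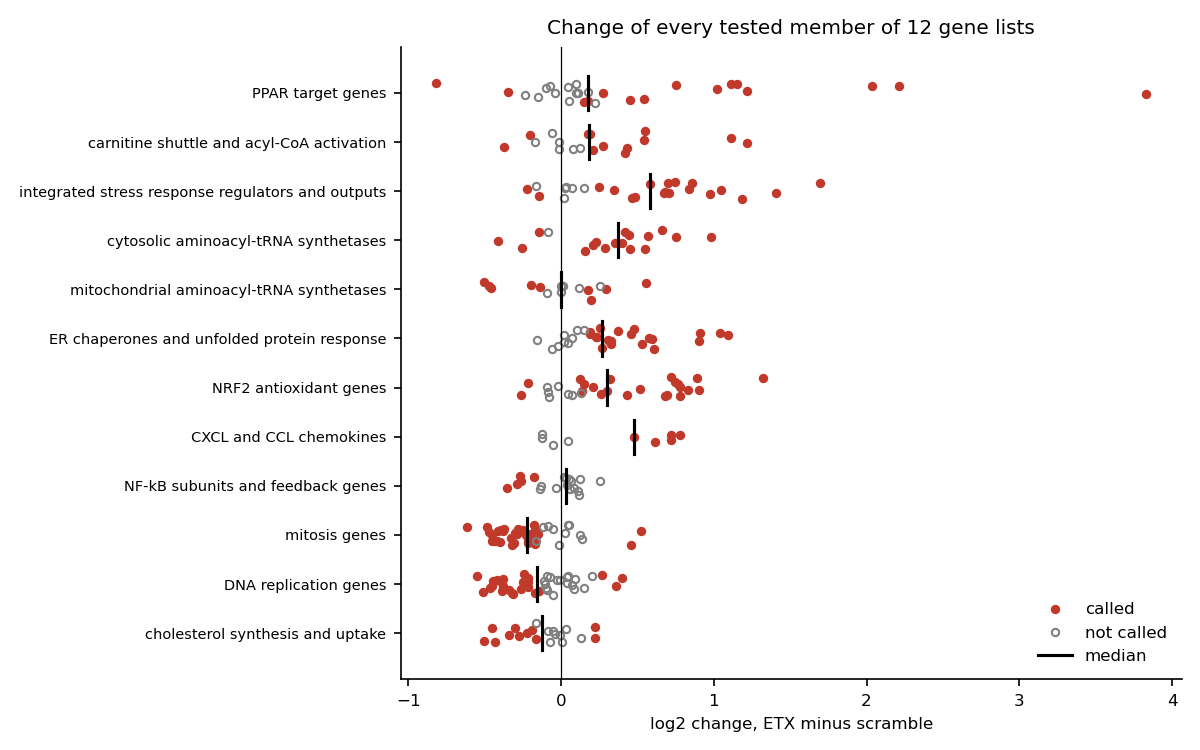
Log2 change with ETX against scramble (horizontal axis) for every tested member of 12 gene lists, each point a gene and each bar the list's median. The stress response, cytosolic synthetase and ER lists lie mostly right of 0 (medians 0.58, 0.38 and 0.27), the mitochondrial synthetases lie around 0 (median 0.00), and the mitosis list lies left of it (median -0.22).

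Genes of protein folding in the endoplasmic reticulum rose, 20 of 29 (69.0%), and 0 fell in limma, also at an unadjusted p under 0.05. DNAJB9, a co-chaperone of the luminal HSP70, read 8.72, 8.76 and 8.65 in scramble and 9.80, 9.89 and 9.71 with ETX (1.09 ± 0.06). XBP1, the transcription factor spliced by IRE1, read 8.58, 8.86 and 8.92 against 9.80, 9.73 and 9.96 (1.04 ± 0.09). SEC24D, a coat subunit of vesicles leaving the ER, rose by 0.91, and HERPUD1, of ER-associated degradation, rose by 0.90. HSPA5 (BiP), the main luminal chaperone, rose less, from 12.60, 12.74 and 12.75 to 13.16, 13.20 and 13.16 (0.48 ± 0.05). CALR, HSP90B1 and CRELD2 differed by -0.06, 0.07 and -0.02 and did not pass (limma adjusted p = 0.393, 0.645 and 0.755). Averaged over probe sets XBP1 was 0.42 and HERPUD1 0.43. The ER list held 1 fall without scramble array 3, and 16 rises and 0 falls in limma with the GAPDH covariate.

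The ER stress element (ERSE), bound by ATF6 with NF-Y, was searched on both strands as CCAAT and CCACG with 9 bases between; it includes the CCAAT box, which alone stood in 33.04% of all promoters. The whole element stood in 0.08% of all promoters, in 13 tested genes and in 6 of 25 ER genes. Those 6 include CALR, HSP90B1 and CRELD2, so the letters stood before ER genes that rose and before ER genes that did not pass. The windows of the 3 that rose lie at chr22:28800581-28800643 (minus strand) for XBP1, chr9:125241369-125241431 (minus strand) for HSPA5 and chr5:179698756-179698818 (plus strand) for CANX, with capitals marking the element.
XBP1: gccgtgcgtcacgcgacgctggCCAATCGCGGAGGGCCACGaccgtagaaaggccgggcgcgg
HSPA5: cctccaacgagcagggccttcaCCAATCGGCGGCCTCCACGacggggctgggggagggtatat
CANX: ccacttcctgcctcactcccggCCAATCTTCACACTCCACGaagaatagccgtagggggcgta
CANX, the lectin chaperone calnexin, rose by 0.27 (limma adjusted p = 0.000772). Of all 13 tested genes with the element 6 rose and 0 fell.

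Folding genes of the mitochondria and the cytosol were listed apart. Of 15 mitochondrial chaperones and proteases 7 rose and 3 fell, the largest rise being GRPEL2, a nucleotide exchange factor of the matrix HSP70 (0.60); the 7 rises became 3 without scramble array 1, and the 3 falls became 1 without ETX array 1 or 2. Of 12 cytosolic heat shock genes 5 rose and 1 fell, with DNAJA1 at 0.43, DNAJB4 at 0.40 and HSPH1 at 0.37. The cytosolic fall was lost without scramble array 1 or ETX array 2, and 2 fell without ETX array 3. As covariates, actin gave 4 rises and 2 falls and GAPDH 1 rise and 0 falls in the mitochondrial list, against 5 rises and 0 falls and 3 rises and 0 falls in the cytosolic one, in limma. DNAJA1 was 0.26 with actin and lost with GAPDH (limma adjusted p = 0.165), and over all probe sets DNAJB4 was 0.65 and HSPH1 0.23.

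Antioxidant genes under NRF2, the transcription factor released from KEAP1 by electrophiles, gave 20 rises (69.0%) and 2 falls among 29 genes, with a median of 0.30. TXNRD1, thioredoxin reductase, read 12.34, 12.36 and 12.36 in scramble and 13.14, 13.07 and 13.14 with ETX (0.76 ± 0.04, limma adjusted p = 1.13e-07). AKR1C1, an aldo-keto reductase whose probe sets can share signal with its near-identical family members, read 8.42, 8.45 and 8.24 against 9.26, 9.20 and 9.33 (0.89 ± 0.07). GCLC and GCLM, the subunits of the enzyme that starts glutathione synthesis, rose by 0.78 and 0.90, and HMOX1, haem oxygenase, by 0.78. NFE2L2, the gene of NRF2, read 10.21, 10.45 and 10.86 against 11.35, 11.38 and 11.28 (0.83 ± 0.18, limma adjusted p = 0.00319), with scramble 3 nearest to ETX; its other probe set gave 0.10. KEAP1 fell by 0.22. With the actin control as a covariate the list gave 15 rises and 2 falls. Glutathione users were mixed, with 9 of 21 higher and 5 lower: CAT, catalase, rose by 0.61 and CHAC2 by 0.70, while the peroxidases GPX1 and GPX4 fell by 0.43 and 0.26. Of the other peroxidases on the list, GPX3 was called lower and GPX8 higher. The 9 rises became 5 without scramble array 2, and the 5 falls became 3 without ETX array 1. GAPDH as a covariate gave 14 rises and 1 fall in the NRF2 list and 5 rises and 3 falls among glutathione users, where actin gave 6 rises and 3 falls. NFE2L2 was 0.47 over its probe sets, 0.49 with actin and 0.20 with GAPDH, which did not pass (limma adjusted p = 0.0776). CHAC2 was 0.43 with GAPDH.

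The core of the antioxidant response element (ARE) was searched as TGACNNNGC on both strands; some matches also hold the AP-1 letters TGANTCA. It stood in 11.03% of all promoters and in 12.02% of tested genes. Over all tested genes the core alone did not mark rises: 23.2% of genes with it were higher and 18.8% lower, against 22.3% and 20.1% without. Among 22 NRF2 genes with a promoter 5 held it. The windows of 2 of these and of a transporter that rose are shown with the core in capitals, GCLM on the opposite strand: chr12:104215658-104215710 (plus strand) for TXNRD1, chr1:93909434-93909486 (minus strand) for GCLM and chr11:62881640-62881692 (plus strand) for SLC3A2, which belongs to the transporter list and holds the AP-1 letters within the core.
TXNRD1: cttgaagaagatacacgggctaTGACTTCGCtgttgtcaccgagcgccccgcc
GCLM: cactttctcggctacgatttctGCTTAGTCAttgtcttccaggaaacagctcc
SLC3A2: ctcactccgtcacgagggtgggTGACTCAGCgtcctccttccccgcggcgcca
The PPAR element, searched on both strands as a direct repeat of AGGNCA with 1 base between, was in 0.27% of all promoters and in 0 of the 21 PPAR targets with a promoter, which says only that these letters are not in this window.

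Several mediators of inflammation rose. PTGS2, the inducible cyclooxygenase, read 7.44, 7.37 and 7.24 in scramble and 9.52, 9.21 and 9.49 with ETX (2.06 ± 0.10). IL1B read 9.75, 9.82 and 10.07 against 11.89, 11.89 and 11.81 (1.99 ± 0.11), and IL6 read 7.71, 7.83 and 7.71 against 9.02, 8.93 and 9.10 (1.27 ± 0.06). In all 3 genes the lowest ETX array lay more than 1 log2 unit above the highest scramble array. TLR4, the receptor for bacterial lipopolysaccharide, rose by 1.05 from 8.22, 8.27 and 8.04 to 9.25, 9.22 and 9.22. Of 9 tested chemokines 5 rose (55.6%) and 0 fell in limma, also at an unadjusted p under 0.05. They were CCL20 (0.78, from 5.76, 6.17 and 5.73 to 6.84, 6.39 and 6.76), which passed the filter on low values only through its ETX arrays and so had to differ, CXCL8 (0.72), CXCL2 (0.72), CXCL3 (0.62) and CXCL1 (0.48). Of 16 genes of the interleukin-1 and IL-6 families with colony factors 8 rose and 3 fell, the falls being IL11 (-0.37), CSF1 (-0.36) and LIF (-0.23). Chemokines gave 5 rises and 1 fall with the GAPDH covariate, and the interleukin list 9 rises and 1 fall with actin and 6 rises and 1 fall with GAPDH. CXCL8 averaged over its probe sets was 1.14.

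The NF-kB subunits and feedback genes did not rise with these mediators: of 19 tested genes 0 rose in limma (2 at an unadjusted p under 0.05) and 5 fell, among them REL (-0.35), TNIP2 (-0.29) and TRAF1 (-0.27). NFKBIA and TNFAIP3, the rapid feedback inhibitors, differed by -0.14 and 0.04 (limma adjusted p = 0.0554 and 0.649), and NFKB1 by 0.25 (limma adjusted p = 0.0602). IKBKE was called lower (-0.26), with its other probe set called higher. Around PTGS2, PLA2G4A, the phospholipase that frees arachidonic acid, rose by 0.68 from 7.93, 8.14 and 7.86 to 8.64, 8.68 and 8.64, and 7 of 13 prostaglandin genes rose with 1 fall. PTGES, the inducible prostaglandin E synthase, differed by -0.33 (limma adjusted p = 0.0537). The prostaglandin fall was lost without any single array but ETX array 3, and PTGFR entered that list only through its ETX arrays; GAPDH as a covariate gave 5 rises and 0 falls. In the NF-kB list 1 gene rose without scramble array 3, and it gave 0 rises and 3 falls with actin and 0 rises and 1 fall with GAPDH in limma. REL was -0.16 over its probe sets and -0.19 with actin, and TRAF1 was lost with actin (-0.22, limma adjusted p = 0.0519). REL, TNIP2 and TRAF1 were lost with GAPDH (-0.11, -0.15 and -0.20, limma adjusted p = 0.323, 0.102 and 0.169).

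Growth-factor ligands and early genes rose in part. TGFA read 10.03, 10.08 and 10.01 in scramble and 10.59, 10.53 and 10.59 with ETX (0.53 ± 0.04), and ERRFI1, a feedback inhibitor of the EGF receptor, rose by 0.47. EREG, epiregulin, read 8.05, 8.21 and 8.53 against 9.87, 9.83 and 10.02 (1.65 ± 0.19). KLF4, a Krüppel-like transcription factor, read 8.63, 8.66 and 8.71 against 10.26, 10.12 and 10.07 (1.48 ± 0.12). Of 31 MAPK feedback and immediate early genes 14 rose (45.2%) and 5 fell, including DUSP5 (0.60) and SPRED1 (0.56), which restrain MAPK signalling, and FOSL1, an AP-1 subunit that fell by 0.66 from 12.39, 12.33 and 12.17 to 11.62, 11.61 and 11.68. The MAPK list gave 8 rises and 2 falls with the GAPDH covariate, where FOSL1 was -0.44. EREG was 0.94 averaged over its probe sets, and its change with that covariate was also over 1.5 times smaller.

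Several rises had a wide spread in scramble, with scramble 3 nearest to the ETX arrays. MYC read 10.06, 10.33 and 10.72 in scramble and 11.52, 11.60 and 11.58 with ETX (1.20 ± 0.18). TMEM64, a membrane protein, read 6.96, 7.33 and 8.08 against 9.28, 9.22 and 9.28 (1.80 ± 0.29), and MMGT1, of the ER membrane complex, read 8.40, 8.49 and 9.31 against 9.82, 9.81 and 9.84 (1.09 ± 0.24). No groups overlapped, which the rule for the largest rises required, and the ETX arrays were tight. In all, 6 of the 30 largest rises had a scramble SD above 0.25: TMEM64, RBM7, MYC, TBC1D9, MMGT1 and APOOL. Leaving out scramble 3 gave 2.12 for TMEM64, 1.37 for MYC and 1.38 for MMGT1, and taking the actin control as a covariate gave 1.21, 0.83 and 0.58, all still called. The nearest scramble array to the ETX mean was scramble 3 in 20 of the 30 largest rises (66.7%) and in 20 of the 30 largest falls (66.7%). It was scramble 3 in 1695 of all 2821 called rises (60.1%), 1541 of all 2498 called falls (61.7%) and 6033 of all 12887 tested genes (46.8%). The share among the largest rises thus lies near that of called genes. By contrast the scramble SD was 0.06 for CTH and 0.08 for ANGPTL4. With GAPDH as a covariate TMEM64 was 0.76, MYC 0.57 and MMGT1 0.23, the last of which did not pass (limma adjusted p = 0.12). TMEM64 averaged over its probe sets was 1.03.

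**Figure D3:**
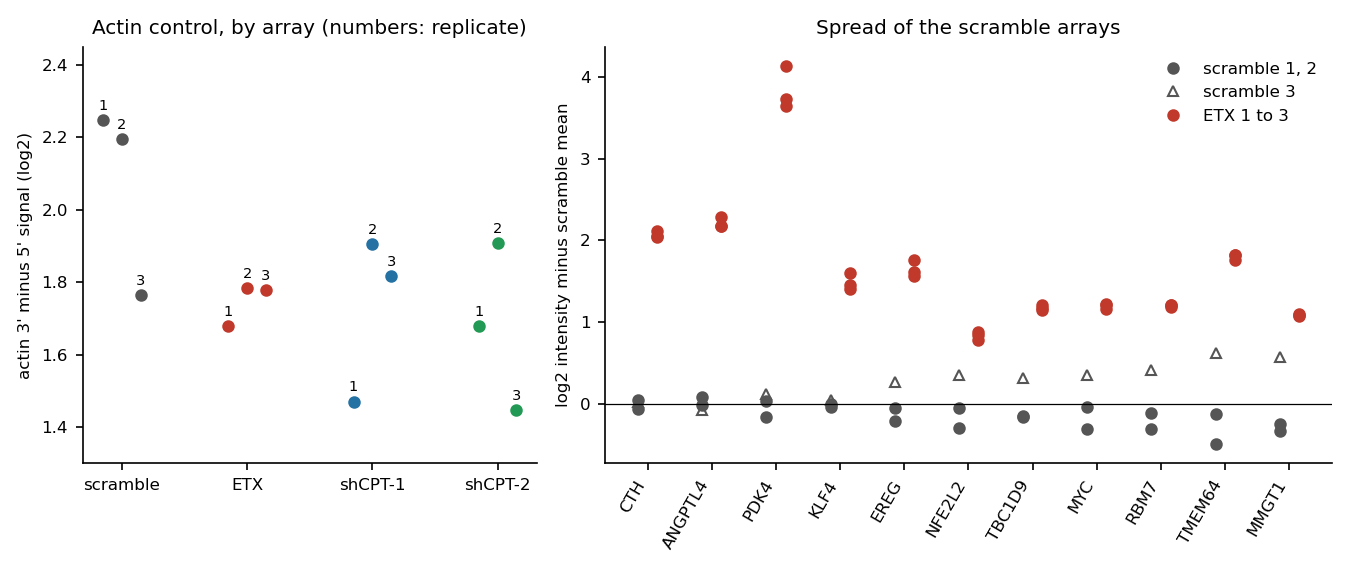
Left, the difference between 3′ and 5′ signal of the actin control (log2) on each of the 12 arrays, numbered by replicate. Right, log2 intensity minus the scramble mean for 11 genes, with scramble 3 as an open triangle, the other scramble arrays as grey points and the ETX arrays as red points; scramble 3 lies on the ETX side for MYC, TMEM64, MMGT1 and NFE2L2, and with the other scramble arrays for CTH and ANGPTL4.

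Cell division genes fell by small steps. Of 45 tested mitosis genes 33 fell (73.3%) and 2 rose, with a median of -0.22, and in 35 the ETX arrays all lay below the scramble arrays. KIF20A, a kinesin of cytokinesis, read 11.94, 11.89 and 11.82 in scramble and 11.28, 11.24 and 11.29 with ETX (-0.61 ± 0.05). CDC20, the activator of the anaphase-promoting complex, read 12.52, 12.47 and 12.47 against 12.04, 12.07 and 12.09 (-0.42 ± 0.04). KIFC1 (-0.73) and TACC3 (-0.65), both of the spindle, were among the 30 largest falls. MAD2L1 and ECT2 were the 2 rises, at 0.46 and 0.52, and neither was called with the actin control as a covariate, which gave 0 rises and 34 falls. The list of the anaphase-promoting complex, a ubiquitin ligase, and its partners gave 9 falls (56.2%) and 1 rise among 16 genes, with UBE2C at -0.45 and UBE2S at -0.31. Its falls CDC20 and UBE2C are also counted among the mitosis genes, so the lists are not separate. CDC27, a core subunit, was called lower (-0.87), but 2 of its 4 kept probe sets were called higher. CDC27 did not pass when its probe sets were averaged (-0.079, limma adjusted p = 0.227). Mitosis genes gave 0 rises and 33 falls with the GAPDH covariate in limma, and the complex 0 rises and 4 falls. The 2 mitosis rises became 1 without any single array but scramble array 3, and the rise in the complex was lost without scramble array 1, scramble array 2 or ETX array 3. In bulk RNA, fewer dividing cells and less RNA per dividing cell cannot be told apart.

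DNA replication genes showed the same direction, 22 of 42 lower (52.4%) and 3 higher, with a median of -0.16; the 3 rises became 6 without scramble array 3. LIG1, the replicative ligase, read 10.04, 10.06 and 9.95 in scramble and 9.48, 9.55 and 9.49 with ETX (-0.51 ± 0.05). MCM5, of the replicative helicase, fell by 0.46, GINS2 by 0.45 and POLE, the leading-strand polymerase, by 0.55. Of 20 CDK inhibitors and G1 cyclins 8 fell and 4 rose. CCND2, cyclin D2, read 8.56, 8.59 and 8.61 against 9.48, 9.56 and 9.50 (0.92 ± 0.05), CDKN1A (p21) rose by 0.36, and CCNE2 and E2F2 fell by 0.39 and 0.53. The 4 rises became 2 without scramble array 1, scramble array 2 or ETX array 1. Replication genes gave 0 rises and 20 falls with the GAPDH covariate in limma, and CDK inhibitors and cyclins 2 rises and 7 falls with actin and 2 rises and 4 falls with GAPDH. CCNE2 did not pass when its probe sets were averaged (-0.12, limma adjusted p = 0.127), GINS2 averaged over its probe sets was -0.19, and MCM5 was -0.30 with GAPDH.

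The cell cycle homology region (CHR), bound by the DREAM complex, was searched as TTTGAA on both strands and stood in 13.57% of all promoters, in 8.56% of tested genes and in 20 of 38 mitosis genes (52.63%). The E2F site, searched as TTTCCCGC, stood in 1.42% of all promoters and in 9 of 37 replication genes (24.32%). Windows are given for mitosis genes that fell, at chr1:43358894-43358943 (plus strand) for CDC20, chr15:40161024-40161068 (plus strand) for BUB1B and chr15:90994536-90994577 (minus strand) for PRC1, and for replication genes that fell, at chr19:48170429-48170480 (minus strand) for LIG1 and chr16:85688956-85689007 (minus strand) for GINS2; capitals mark the TTTGAA or E2F letters, on the opposite strand in GINS2.
CDC20: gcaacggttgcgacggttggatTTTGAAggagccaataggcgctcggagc
BUB1B: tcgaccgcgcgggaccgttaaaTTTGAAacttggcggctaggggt
PRC1: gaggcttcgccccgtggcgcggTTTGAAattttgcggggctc
LIG1: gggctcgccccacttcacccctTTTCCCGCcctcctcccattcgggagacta
GINS2: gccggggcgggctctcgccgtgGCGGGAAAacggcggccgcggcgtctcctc
BUB1B, a checkpoint kinase, fell by 0.37, and PRC1, a bundler of spindle microtubules, fell by 0.33. Over all tested genes the CHR letters alone did not mark falls: 174 of 893 genes with them were lower (19.5%), against 1908 of 9536 without. With the E2F letters 27.8% were lower, against 19.8% without.

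TGF-beta signalling held both falls and rises. PMEPA1, which is both a target and a brake of TGF-beta signalling, read 9.91, 9.82 and 9.83 in scramble and 8.58, 8.65 and 8.64 with ETX (-1.23 ± 0.05, limma adjusted p = 1.53e-08). In TGF-beta and BMP signalling 12 of 34 genes fell (35.3%) and 7 rose: SMAD3, a receptor-activated transcription factor, fell by 0.55, and the targets TGFBI, ID3 and ID1 by 0.44, 0.40 and 0.35. CCN2, a matrix-associated target shared with YAP, rose instead, from 10.90, 11.05 and 11.30 to 12.24, 12.29 and 12.10 (1.13 ± 0.14), and SMAD4 rose by 0.66. PLXNA1, a semaphorin receptor, read 11.66, 11.60 and 11.29 against 10.50, 10.53 and 10.64 (-0.96 ± 0.08). SMAD3 and PLXNA1 were -0.17 and -0.58 averaged over their probe sets. The list gave 3 rises and 9 falls with the GAPDH covariate, where CCN2 was 0.65.

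Proteases of invasion moved in both directions. PLAU, urokinase, read 10.75, 10.81 and 10.70 in scramble and 9.71, 9.82 and 9.86 with ETX (-0.95 ± 0.05). MMP9, gelatinase B, fell from 8.58, 8.33 and 8.55 to 7.43, 7.19 and 7.14 (-1.23 ± 0.10). MMP1, the interstitial collagenase, rose from 12.15, 12.23 and 12.28 to 13.06, 13.02 and 13.03 (0.81 ± 0.04). In each the groups were clearly separate. SERPINE2, an inhibitor of plasminogen activators, rose by 0.63. Over 17 genes of plasminogen activation and matrix proteases 7 rose and 4 fell. The integrins ITGA2, ITGAV and ITGB5 rose by 0.72, 0.46 and 0.43, with 5 rises and 5 falls among 18 integrins and laminins; the falls became 1 without scramble array 1, 2 without scramble array 2 or ETX array 2, and 3 without ETX array 1. GAPDH as a covariate gave 4 rises and 5 falls among proteases and 4 rises and 1 fall among integrins, where actin gave 7 rises and 1 fall. ITGA2 was 0.38 over its probe sets, and ITGA2 and ITGB5 were 0.33 and 0.21 with GAPDH.

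SRC, a tyrosine kinase often active in triple-negative breast cancer, read 7.71, 7.78 and 7.52 in scramble and 7.46, 7.64 and 7.21 with ETX. The groups overlapped and the difference did not pass (-0.24, limma adjusted p = 0.0798); it passed without ETX array 2 (-0.34, limma adjusted p = 0.021) or without scramble array 3 (-0.31, limma adjusted p = 0.0331). Among 17 Src family kinases and partners 6 fell (35.3%) and 1 rose. PAG1, the membrane anchor of CSK, fell by 0.34, and PTK2, focal adhesion kinase, fell by 0.18. CTTN, cortactin, was called lower (-0.40), with 2 of its 4 kept probe sets called higher. When probe sets were averaged, PAG1 (-0.14, limma adjusted p = 0.0574), PTK2 (-0.10, 0.208) and CTTN (0.028, 0.802) did not pass. PTK2 was also lost with GAPDH, though its change stayed near that of the main fit (-0.17, limma adjusted p = 0.0702). With that covariate CTTN was -0.21 and the list gave 1 rise and 3 falls. The 1 rise was lost without scramble array 3 or ETX array 3.

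Central carbon metabolism changed unevenly. TXNIP, a glucose-responsive inhibitor of glucose uptake, read 11.59, 11.56 and 11.59 in scramble and 10.78, 10.81 and 10.71 with ETX (-0.82 ± 0.04). PFKFB4, which sets the level of fructose 2,6-bisphosphate, read 9.84, 9.70 and 9.69 against 9.12, 9.01 and 9.13 (-0.66 ± 0.05). Glycolysis and lactate transport gave 7 falls and 3 rises among 22 genes; LDHA and HK2 differed by -0.07 and -0.09 and did not pass (limma adjusted p = 0.149 for each), and the falls became 4 without scramble array 2. The TCA cycle gave 5 rises and 3 falls among 17, with IDH3A at 0.68 and OGDH at -0.34; the rises became 3 without scramble array 1 and 9 without scramble array 3. Among 52 subunits of oxidative phosphorylation 9 rose and 11 fell (17.3% and 21.2%), near the background in both directions. Without ETX array 1 or ETX array 2 these became 5 and 7. In the TCA list actin gave 2 rises and 3 falls and a median of -0.02 in place of 0.10, and GAPDH 1 rise and 3 falls; GAPDH also gave 0 rises and 3 falls in glycolysis and 0 rises and 5 falls in oxidative phosphorylation, in limma. IDH3A was 0.29 over its probe sets and 0.30 with GAPDH, OGDH was lost with GAPDH (limma adjusted p = 0.1), and PFKFB4 over its probe sets was -0.41.

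Lysosome and autophagy genes rose, 18 of 36 (50.0%), with 3 falls. SQSTM1 (p62), the cargo receptor that is also an NRF2 target, read 10.67, 10.66 and 10.70 in scramble and 11.30, 11.35 and 11.31 with ETX (0.64 ± 0.05). CTSL, cathepsin L, rose by 0.42, WIPI1 by 0.39 and MAP1LC3B by 0.31. For 15 of the 18 risers (83.3%) scramble 3 was the scramble array nearest to ETX, against 60.1% of all called rises. Proteasome subunits gave 12 rises (36.4%) and 0 falls among 33 in limma, also 0 falls at an unadjusted p under 0.05; scramble 3 was nearest in 11 of the 12, the rises became 7 without scramble array 1 and 16 without scramble array 3, and the actin covariate left 7. PSMB9, an immunoproteasome subunit, rose by 0.62, and PSMA3 by 0.37. Lysosome genes gave 17 rises and 1 fall with actin and 9 rises and 0 falls with GAPDH, and proteasome subunits 3 rises and 0 falls with GAPDH, in limma. Without scramble array 3 the proteasome list held 1 fall. SQSTM1 averaged over its probe sets was 0.39; with GAPDH PSMA3 was 0.21, and PSMB9 was lost (limma adjusted p = 0.0633).

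The remaining large rises belong to none of these lists. SEL1L3 read 7.06, 6.96 and 7.20 in scramble and 8.80, 8.76 and 8.69 with ETX (1.68 ± 0.06). ARRDC3, an arrestin-domain relative of TXNIP, read 7.65, 7.70 and 7.75 against 8.91, 8.89 and 9.05 (1.25 ± 0.08), so that these relatives went in opposite directions. RCAN1, a calcineurin inhibitor, read 9.74, 9.84 and 10.06 against 10.95, 10.96 and 11.10 (1.12 ± 0.07). TUBE1, epsilon-tubulin, rose by 1.22. RBM7, TBC1D9 and APOOL rose by 1.20, 1.18 and 1.05 with a wide spread in scramble, and their changes with the actin covariate were 0.74, 0.83 and 0.80. RBM7 and TBC1D9 were 0.39 and 0.57 with the GAPDH covariate, and APOOL did not pass with it (0.54, limma adjusted p = 0.0961). Their probe set averages were 0.63 for RBM7 and 0.58 for APOOL.

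Of the 30 largest falls, which ran from -1.23 to -0.64, 9 were on a list. HMGB3, a chromatin protein, read 11.39, 11.34 and 11.26 in scramble and 10.21, 10.29 and 10.36 with ETX (-1.04 ± 0.05). SOX4, a transcription factor of tumour progression, read 10.83, 10.86 and 10.91 against 10.20, 10.09 and 10.10 (-0.73 ± 0.05). LPCAT1, which remodels phosphatidylcholine, read 10.58, 10.57 and 10.60 against 9.88, 9.82 and 9.82 (-0.74 ± 0.05). In these genes the groups were tight, and the rule for the largest falls required that they not overlap. PLPP3, a lipid phosphatase, fell by 0.76, FAM20C, the kinase of secreted proteins, by 0.84, and TNFAIP2 by 0.79. NEURL1B (-0.91), GAS2L1 (-0.84), FBXO43 (-0.81), MATR3 (-0.78), BHLHE40 (-0.78), ZBED6 (-0.74), TENT5C (-0.67), NKTR (-0.66), FMNL1 (-0.66), PHF19 (-0.65) and ZCCHC24 (-0.64) also fell, and RASEF was called lower (-0.70) with another probe set called higher. ZBED6 and RASEF had wide scramble values, 9.37, 9.22 and 8.64 for the former and 11.60, 11.37 and 10.90 for the latter, with scramble 3 nearest to ETX, and ZBED6 did not pass with the actin covariate (-0.50, limma adjusted p = 0.0922). GAPDH as a covariate lost the calls of MATR3, NKTR, RASEF and ZBED6 (limma adjusted p = 0.0636, 0.0559, 0.241 and 0.462) and gave -0.52 for TNFAIP2. RASEF was -0.41 with actin. Averaged over probe sets, FAM20C was -0.48, PLPP3 -0.41, NKTR -0.40 and RASEF -0.28.

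**Figure D4:**
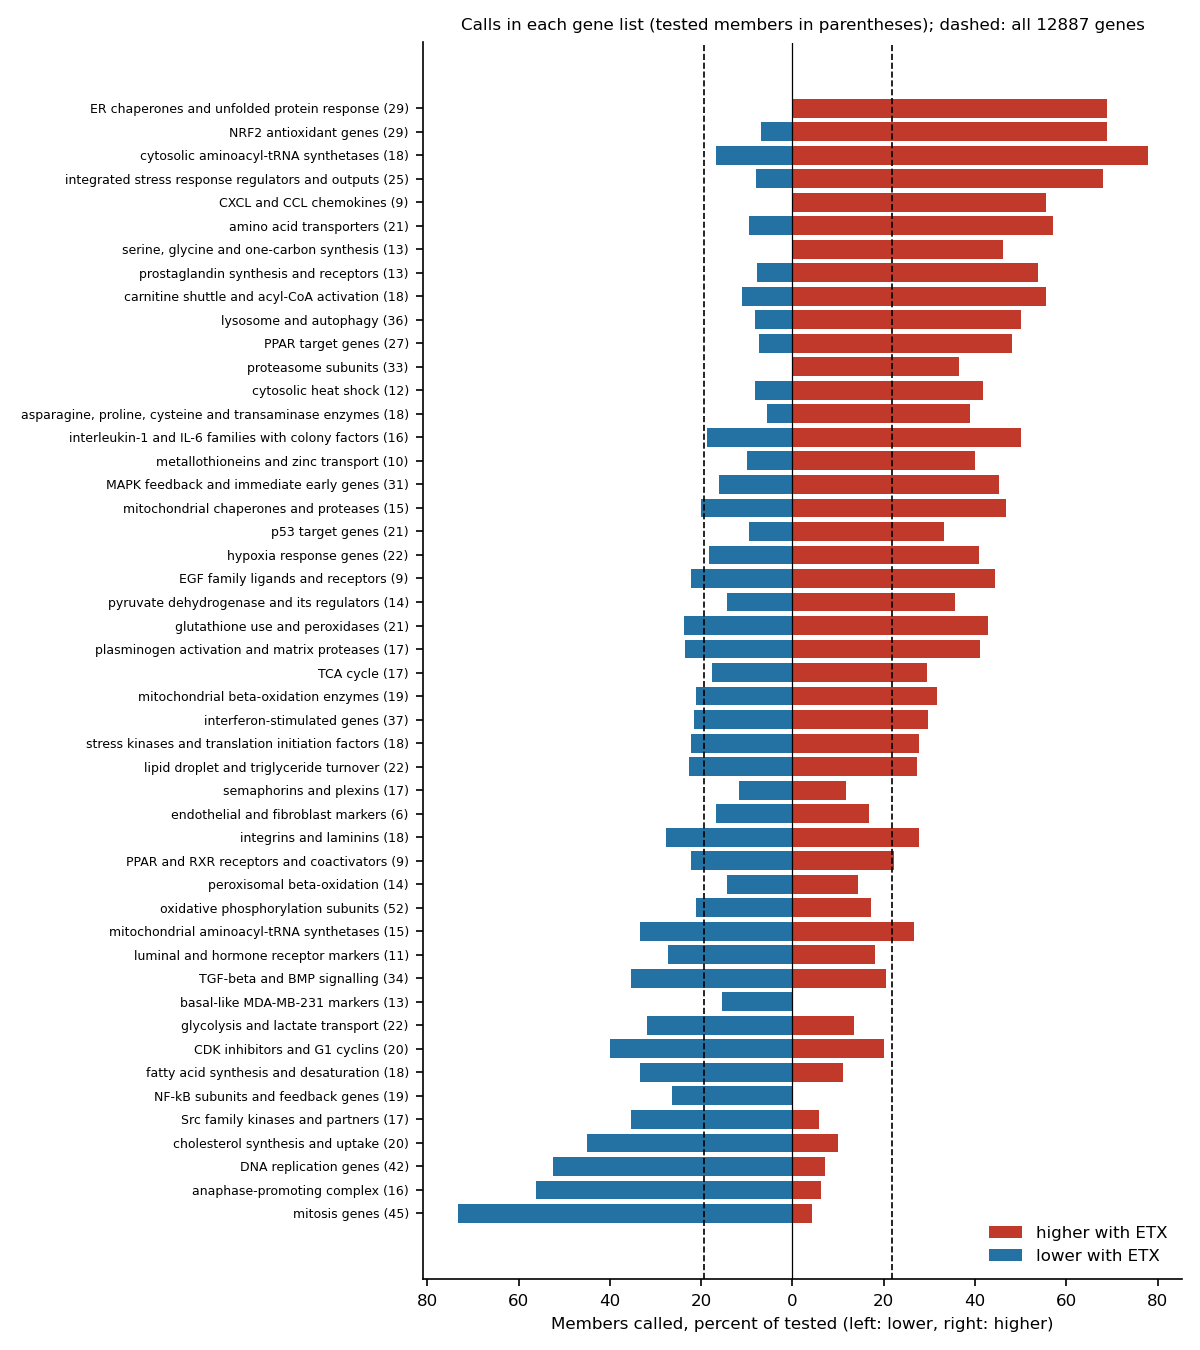
Share of tested members (horizontal axis, percent) that were higher (red) or lower (blue) with ETX in each gene list, with the shares over all tested genes, 21.9% and 19.4%, as dashed lines. The cytosolic synthetase, ER, NRF2 and stress response lists reach 68.0% to 77.8% higher, and the mitosis list 73.3% lower.

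Levels with ETX were also compared directly with those of the hairpin lines. These comparisons share the ETX arrays with the ranking and with each other, so they are no separate evidence. Of all 12887 tested genes ETX differed from shCPT-1 in 5505 (42.7%), with 2550 higher and 2955 lower with ETX. From shCPT-2 it differed in 5896 (45.8%), with 2693 higher and 3203 lower. Of the 30 largest rises 27 were also higher than in shCPT-1 and 25 higher than in shCPT-2, with 0 lower in either. CTH read 9.52, 9.49 and 9.45 in shCPT-1 and 9.05, 9.05 and 9.11 in shCPT-2, above every scramble array and under every ETX array. PDK4 read 5.17, 5.59 and 5.37 in shCPT-1 and 3.98, 4.62 and 4.22 in shCPT-2, under ETX with differences of 3.48 and 4.59. Because PDK4 passed the filter on low values only through its ETX arrays, it had to be higher there, and these differences are uncertain in size. CPT1A with ETX was 2.71 above shCPT-1, the line in which it is targeted, and 1.34 above shCPT-2.

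The falls differed more between the hairpin lines. Of the 30 largest falls 21 were lower with ETX than in shCPT-1 and 9 lower than in shCPT-2, whereas 1 was higher than in shCPT-1 and 11 higher than in shCPT-2. Over all 12887 tested genes 3203 were lower with ETX than in shCPT-2, so the 9 of 30 stand near the background. SLCO4A1, an organic anion transporter, averaged 10.91 in shCPT-1 and 9.09 in shCPT-2, so ETX lay 1.68 above the latter. SPDEF, an epithelial ETS factor, was 0.2536 higher with ETX than in shCPT-1 and 1.0047 higher than in shCPT-2. SREBF1 and PLAU stood lowest with ETX: SREBF1 was 1.79 under shCPT-1 and 1.05 under shCPT-2, and PLAU 1.55 and 0.98. TXNIP was lower with ETX than in either line as well (differences of -0.66 and -0.73).

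**Figure D5:**
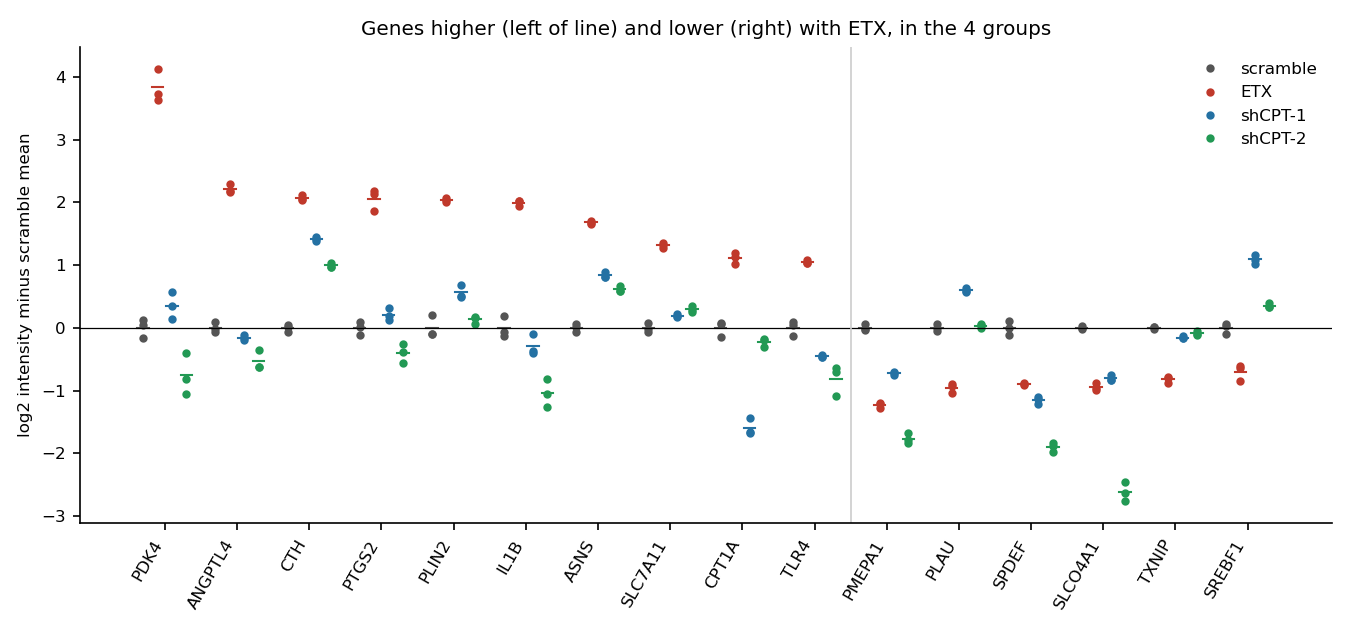
Log2 intensity minus the scramble mean (vertical axis) of 16 genes on all 12 arrays, coloured by group, each point an array and each short line a group mean. PDK4, ANGPTL4, PTGS2 and IL1B are higher with ETX than in the other 3 groups, CTH and ASNS are above scramble in the hairpin lines as well, and PMEPA1, SPDEF and SLCO4A1 are lower still in shCPT-2. PDK4 passed the filter on low values only through its ETX arrays and so had to be higher there.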

How the data were processed

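The arrays are single-colour Affymetrix arrays of total RNA with a biotin label, per the labels. As deposited, each probe set has a linear intensity on every array, from 6.68 to 28791. The intensities were made with RMA, per the submitters' processing notes; its version, settings and a genome build were not found in the labels. RMA corrects background, equalises arrays and summarises probes, so a shift of all genes together cannot be seen. Log2 was taken here from the deposited values. Of 54675 probe sets 62 were controls, 41091 had 1 symbol, 1801 several and 11721 none. Those above their array's median on at least 3 arrays were kept (28630). Each of the 12887 tested genes is represented by its brightest kept probe set, averaged across the series.

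The model was limma 3.58.1 (lmFit, eBayes, no covariate; degrees of freedom: 8 residual, 4.117 prior), run under R 4.3.3 on all 12 arrays, two-sided, with Benjamini-Hochberg adjustment over all tested genes, and was tested on simulated data. With 3 arrays a side an exact permutation test has 0.1 as its smallest p and was not used. The number of arrays limits the precision. Motifs were searched in the 250 bases before each start in RefSeq's promoter table (GRCh38.p14). Other versions were Python 3.11.15, pandas 2.3.3, numpy 2.4.6, matplotlib 3.10.9 and the R package data.table at 1.17.8.

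The members and the 49 gene lists (1125 genes, 949 of them tested) were chosen with earlier results of these data known. Besides the strongest rises and falls, the named genes are up to 4 members per list with the smallest p, and CPT1A, CPT1B, CPT1C, CPT2, SRC, PPARA, PPARD, PPARG, PDK4, ATF4, DDIT3 and NFE2L2. Alternatives covered the filter, probe sets per gene, normalization, prior, a replicate block, weights per array, a minimum of 2-fold, the arrays fitted and leaving out each array. The actin and GAPDH covariates (the difference between a control's 3′ and 5′ signal on each array) and the fit without the least typical arrays were chosen after seeing the data.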

Additional observations from a re-analysis of the deposited data

Results flagged for a closer look

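Probe sets with several gene symbols or none are outside the comparisons above, and some differed between ETX and scramble. Of 5065 kept, 478 were higher with ETX (9.4%) and 725 lower (14.3%) in limma, with adjustment over these probe sets alone. At least 2-fold were 18 rises and 6 falls, the largest at 1.84 and -1.27.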

How the results depend on the processing

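In the main fit 2821 genes were higher and 2498 lower with ETX. Both counts stayed within 1.5 times of these with other filters, averaged probe sets, renormalized or median-centred arrays, another prior and only the compared groups. Median centring gave 3012 rises and 2141 falls, and quantile normalization 2672 and 2826. Leaving out 1 array at a time gave 2201 to 2934 rises and 1820 to 2641 falls. Array weights gave 3994 falls and 3800 rises, and the actin control as a covariate 1665 falls and 2167 rises. GAPDH's as a covariate gave 1304 rises and 866 falls, the lowest counts of these fits without a fold minimum, and 44 of the named genes lost their call with it. At least 2-fold were 56 rises and 3 falls against scramble, 145 and 81 against shCPT-1, and 206 and 63 against shCPT-2. When the probe sets of a gene were averaged, the called genes CTTN (0.0283), IKBKE (0.0049) and NCOA1 (0.14) changed sign, as did AXL (-0.09) and CAV1 (0.12), which were not called. CCNE2, CDC27, IDH2, MT1F, MTF1, PAG1, PSME4, PTK2 and SEMA3C lost their call. A replicate block gave 2732 rises and 2343 falls. Same-numbered arrays deviated together with correlations of 0.0914, 0.2822 and 0.3273. Without the values of differently numbered arrays beside them, these cannot tell whether the numbers pair the arrays. Of the 5319 calls, 4830 were shared without scramble 3, 4989 with the block 3533 with the actin covariate and 1934 with the GAPDH covariate. How far these controls enter a given change was not tested beyond these values. PDK4 in scramble lay under the array medians, where low signal makes a fold less certain.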

Other observations

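Interferon-stimulated genes moved in both directions: of 37 tested 11 rose and 8 fell, shares of 29.7% and 21.6% that stand near the background. TRIM22, an antiviral ubiquitin ligase, read 7.28, 7.39 and 7.46 in scramble and 8.27, 8.18 and 8.05 with ETX (0.79 ± 0.07 SE), while IFIT1, a sensor of foreign RNA, fell from 8.58, 8.74 and 8.70 to 7.87, 7.84 and 7.69 (-0.87 ± 0.09). OASL fell by 0.48 (-0.31 with the GAPDH covariate) and IRF1 rose by 0.34. The list gave 4 rises and 6 falls with that covariate. Of 22 hypoxia response genes 9 rose and 4 fell, the falls becoming 2 without scramble array 2 or ETX array 2, and the actin and GAPDH covariates gave 5 rises and 2 falls and 5 rises and 2 falls. EPAS1, the gene of HIF-2 alpha, rose by 0.55 and LOX, which crosslinks collagen, by 0.47, whereas BHLHE40 fell by 0.78 and VEGFA differed by 0.01 (limma adjusted p = 0.973).

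Of 21 p53 target genes 7 rose (33.3%) and 2 fell, the falls becoming 0 without scramble array 2 or ETX array 2. GADD45A, which responds to several stresses, read 10.62, 10.66 and 10.79 in scramble and 11.42, 11.44 and 11.54 with ETX (0.78 ± 0.05), and ZMAT3 rose by 0.46. Metallothioneins and zinc transporters gave 4 rises and 1 fall among 10 genes, the fall being lost without scramble array 2, scramble array 3, ETX array 1 or ETX array 2, with the exporter SLC30A1 at 0.50 and the importer SLC39A14 at 0.56, while MT2A differed by 0.04 (limma adjusted p = 0.455). Among 18 stress kinases and initiation factors 5 rose and 4 fell; EIF2S2, a subunit of eIF2, rose by 0.71 from 11.63, 11.82 and 12.21 to 12.57, 12.57 and 12.64. Semaphorins and plexins gave 2 rises and 2 falls among 17, with 4 falls without scramble array 3, and SEMA3A rose by 0.55. The semaphorin rises became 1 without scramble array 1, scramble array 2 or ETX array 3, and the falls 3 without the latter. Luminal markers gave 2 rises and 3 falls among 11, with 2 falls without ETX array 2; AGR2, a secretory disulfide isomerase, rose by 0.73 from 6.65, 6.72 and 6.78 to 7.68, 7.37 and 7.29. Of 6 endothelial and fibroblast markers 1 rose and 1 fell, the rise (KDR) being lost without scramble array 1 or ETX array 2, or with actin as a covariate (limma adjusted p = 0.0949). GAPDH as a covariate gave 4 rises and 0 falls in the p53 list, 2 rises and 1 fall in the zinc list, 2 rises and 2 falls among kinases and initiation factors, 0 rises and 1 fall among semaphorins, 1 rise and 2 falls among luminal markers and 0 rises and 1 fall among endothelial and fibroblast markers, in limma. With it AGR2, EIF2S2, SEMA3A and KDR did not pass (limma adjusted p = 0.0634, 0.0578, 0.117 and 0.431), and SLC30A1 and SLC39A14 were 0.26 and 0.36. Actin as a covariate gave 6 rises and 0 falls in the p53 list and 1 rise and 2 falls among semaphorins, with SEMA3A at 0.34 and EIF2S2 at 0.45. Averaged over probe sets EIF2S2 was 0.43 and ZMAT3 0.23.

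Probe sets of the same gene did not always move together. Of 2827 called genes with several kept probe sets, 230 had another probe set called in the opposite direction, CDC27, CTTN and ACAA2 among them.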
